A study of Mus musculus with 47 samples.

Results

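Alg8, Cdr2 and Ptprtos were the analysed autosomal genes that individual mouse iPSCs read almost wholly from 1 parental allele, some cells from the Mus allele and others from the Cast allele. They were chosen by a rule on their allelic counts. Nuclear genes with a symbol starting with M were not analysed here, so all counts of genes are over the others. Of 13515 autosomal genes counted, those outside chromosome 1 with at least 10 counts of both alleles together in 15 or more cells were taken, which left 2750. Of these, 2151 had between 0.3 and 0.7 of their pooled counts on the Mus allele, and 2116 remained once 35 known imprinted genes and genes with a symbol starting with Zfp were left out. None of those 35 would have passed the last step. A gene was kept when at least 80% of its cells with 10 or more counts had a Mus share of at most 0.05 or of at least 0.95, hereafter cells read from 1 allele. The 3 genes are 0.142% of the 2116 eligible genes. Since these counts chose the genes, their values are a description and carry no test.

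The cells were 47 induced pluripotent stem cells (iPSCs), sorted one by one into the wells of 1 plate. They descend from female mouse embryonic fibroblasts of a Mus mother (carrying an eGFP transgene on the X chromosome) and a Cast father, reprogrammed by lentiviral, doxycycline-induced Oct4, Sox2, Klf4 and c-Myc, and grown in serum and LIF. The labels add ascorbic acid to this medium, as do the culture methods for iPSCs, whereas the methods describe the derivation of iPSCs as ending without it. Some cells had lost an X chromosome in culture, and the authors' column names placed 23 cells in the X-Mus X-Cast class, 15 in the X-Cast O-Mus class, which had lost the Mus X chromosome, and 9 in the X-Mus O-Cast class, which had lost the Cast X chromosome. Every cell was treated with a GpC methyltransferase before its polyA RNA was captured and amplified without molecular identifiers. The labels name no separate cultures or clones, so the 47 cells are 1 sample and the classes are not replicated.

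Transcription of most genes comes in bursts, in which an allele switches on, makes several RNAs and falls silent again. The frequency of bursts and their size are separate quantities, and an allele that fires seldom will be silent in many cells at the moment of sampling. A gene can therefore be read from one parent in one cell and from the other parent in the next without being imprinted, while some autosomal genes are known to keep such a choice through cell division. In single-cell libraries, the loss of an allele's RNA before amplification gives the same picture. Which of these applies to the 3 genes was not tested.

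Allelic counts per cell ranged from 71682 to 216451 (median 167041). Between 46.9% and 58.5% of X-linked counts fell on Mus in X-Mus X-Cast cells, against 0% to 1.25% in X-Cast O-Mus and 97.6% to 99.2% in X-Mus O-Cast cells. All 29 counted genes of a pluripotency list had reads, and their summed level was 63.3 to 230.1 counts per 10000 counts of a cell. Of 11 fibroblast markers counted, 5 had reads, at a summed 0 to 9.14 per 10000 (median 1.57), and Col1a2, Dcn, Lum, Postn, Prrx1 and S100a4 were at 0.

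Alg8 encodes a glucosyltransferase of the endoplasmic reticulum that adds glucose to the lipid-linked sugar chain later moved onto proteins in N-glycosylation. The gene (ENSMUSG00000035704.17) lies on the forward strand of chr7:97371606-97392185 (GRCm38) and has 14 exon blocks. Cdr2 encodes a cytoplasmic coiled-coil protein that binds c-Myc and is the antigen of anti-Yo antibodies in paraneoplastic cerebellar degeneration. It (ENSMUSG00000030878.11) lies on the reverse strand of chr7:120957036-120982312 and has 5 exon blocks, which are together 5684 bases long. Ptprtos (ENSMUSG00000084919.1) is annotated as an antisense RNA of 3 exon blocks and 630 bases on the forward strand of chr2:162390813-162393945, inside Ptprt, which encodes a receptor-type tyrosine phosphatase on the reverse strand. Alg8 and Cdr2 are 23585430 bases apart on chromosome 7.

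The promoters are shown because transcription of an allele starts there, and because Ptprtos differed from the other two in its CG content. Each window runs 5′ to 3′ from 250 bases before to 50 bases after the start in RefSeq (GRCm38.p6), at chr7:97371367-97371666 (forward strand) for Alg8, chr7:120982263-120982562 (reverse strand) for Cdr2 and chr2:162390563-162390862 (forward strand) for Ptprtos. Capitals mark matches to the motifs searched.
Alg8: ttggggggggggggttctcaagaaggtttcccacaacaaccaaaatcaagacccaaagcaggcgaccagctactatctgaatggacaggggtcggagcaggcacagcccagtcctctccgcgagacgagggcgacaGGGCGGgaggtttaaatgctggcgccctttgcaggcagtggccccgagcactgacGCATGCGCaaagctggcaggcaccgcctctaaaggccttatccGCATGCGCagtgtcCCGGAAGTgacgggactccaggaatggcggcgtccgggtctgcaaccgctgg
Cdr2: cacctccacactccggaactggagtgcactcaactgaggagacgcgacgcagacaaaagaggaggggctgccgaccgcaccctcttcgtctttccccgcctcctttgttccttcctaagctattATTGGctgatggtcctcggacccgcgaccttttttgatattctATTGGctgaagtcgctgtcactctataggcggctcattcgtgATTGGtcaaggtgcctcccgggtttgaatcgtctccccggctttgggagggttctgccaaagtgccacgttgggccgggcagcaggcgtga
Ptprtos: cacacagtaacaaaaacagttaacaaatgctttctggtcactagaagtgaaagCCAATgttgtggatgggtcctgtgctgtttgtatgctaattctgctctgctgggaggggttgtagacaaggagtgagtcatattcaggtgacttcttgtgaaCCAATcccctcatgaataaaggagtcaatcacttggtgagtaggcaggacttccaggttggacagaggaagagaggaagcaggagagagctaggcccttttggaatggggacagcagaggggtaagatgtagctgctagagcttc
Alg8 and Cdr2 each had 20 CG dinucleotides in this window, near the median of 22 over 2086 promoters of eligible genes. Ptprtos had 0, below the median of 7 over all 32851 promoters, and a GC content of 47.3% against 62.3% for Alg8 and 57.3% for Cdr2. The sequence CCAAT occurred at positions 54 and 156 of the Ptprtos window, and its reverse complement ATTGG at positions 125, 168 and 210 of the Cdr2 window. It was found on either strand in 37.4% of all promoters and 40.9% of those of eligible genes. The Alg8 window held GGGCGG at position 137 (64.3% of eligible promoters) and the ETS-type sequence CCGGAAGT at position 249 (11.8%). None of the 3 windows held, on either strand, a TATA box (TATAAA), an E-box (CACGTG), a cAMP response element (TGACGTCA), a YY1-type sequence (AAGATGGC) or the full 10-letter NRF1 motif. The final 8 letters of this NRF1 motif (GCATGCGC), looked for after the sequences had been seen, were at positions 192 and 235 of the Alg8 window and in 7.05% of eligible promoters.

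Alg8 was read in 26 of the 47 cells, and 15 cells had at least 10 counts. The Mus allele alone was read in 3 of these, with 12, 20 and 22 counts. The Cast allele alone was read in 10, with 10 to 23 counts (median 13). In the 2 remaining cells both alleles were read, with 6 Mus and 23 Cast counts in well C02 and 15 Mus and 13 Cast counts in well G04. These were the cells with the highest Alg8 counts of the plate. Cells read from 1 allele made up 86.7% (95% Clopper-Pearson interval 59.5% to 98.3%, counting error only), and the pooled Mus share was 31.4%, just inside the lower limit of 0.3.

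Cdr2 was read in 23 cells and again reached 10 counts in 15. The Mus allele was read in 8 of these, with 12 to 79 counts (median 19), and the Cast allele in 5, with 10 to 48 counts (median 18). Of the latter, the cell in well A03 also had 2 Mus counts beside 46 Cast counts, so the second allele was at 0 in 12 of the 13 cells. Both alleles passed the limits in wells A05 (5 Mus and 33 Cast counts) and E01 (6 Mus and 18 Cast counts), where the Mus allele was the lesser one each time. The share read from 1 allele was 86.7% and the pooled Mus share 57.9%. A single cell, C01, held 79 counts, all Mus, which was 18.0% of all Cdr2 counts.

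Ptprtos was the sharpest of the 3. It was at 0 in 30 cells, more than any other eligible gene, and 15 of the 17 cells with a read had at least 10 counts. The Mus allele alone was read in 8 of them, with 15 to 40 counts (median 25), and the Cast allele alone in 6, with 10 to 36 counts (median 20). Only the cell in well D02 held both, with 10 Mus and 3 Cast counts. The share read from 1 allele was 93.3% (68.1% to 99.8%) and the pooled Mus share 61.7%. Cells of both kinds stood side by side at the same level, since 36 counts were all Mus in well A06 and all Cast in wells B03 and H01.

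**Figure D1:**
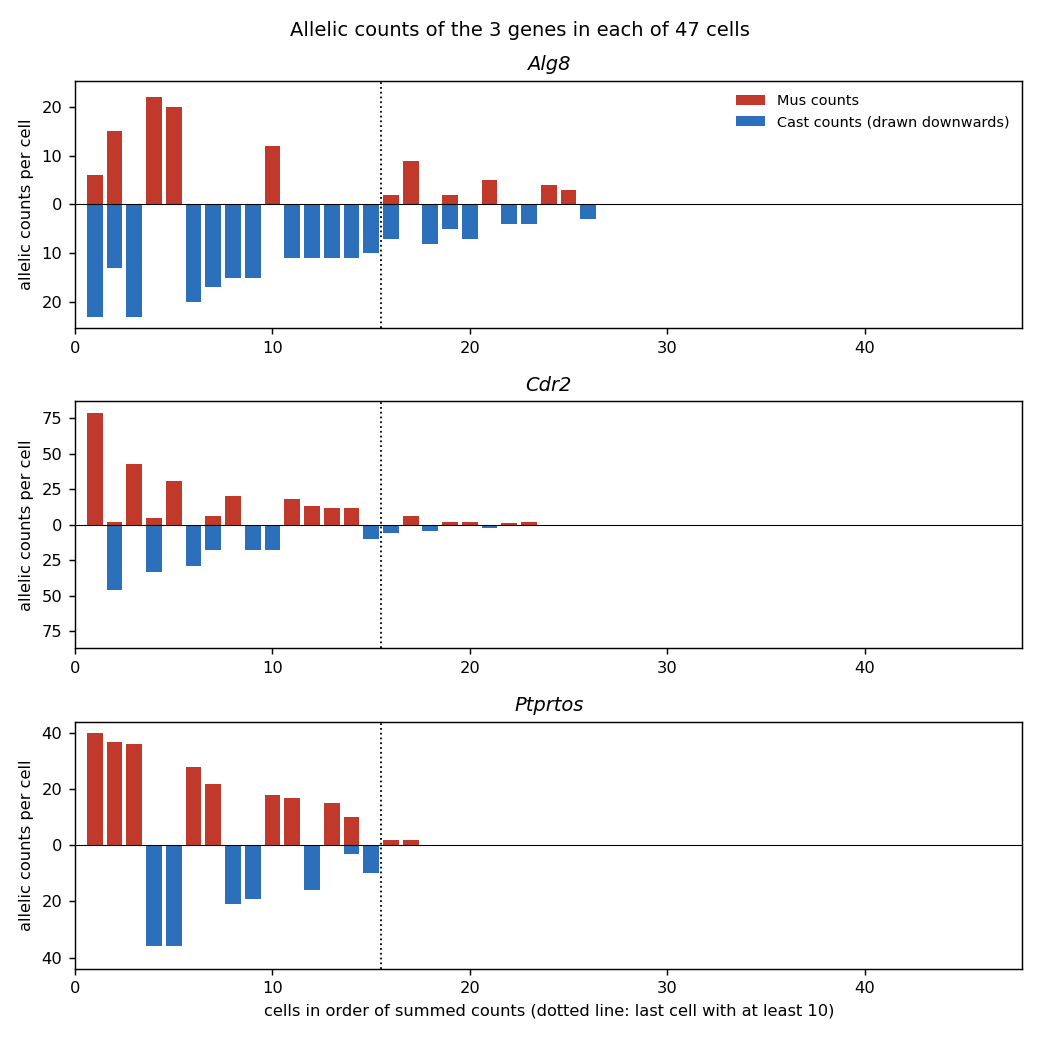
Counts of the Mus allele (red, upwards) and of the Cast allele (blue, downwards) in each of the 47 cells, 1 bar per cell, ordered by the summed counts of the gene. Left of the dotted line are the 15 cells with at least 10 counts, of which 13 for Alg8, 13 for Cdr2 and 14 for Ptprtos were read from 1 allele.

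All 3 genes sat at the minimum of 15 cells, where the share read from 1 allele was high in general. Its median was 33.3% over the 247 eligible genes with 15 to 17 such cells and fell to 2.33% over the 617 genes with 41 to 47. Accordingly the 3 genes were 1.21% of the 247, and 3.26% of the 92 genes with exactly 15 cells. Just outside the 80% limit were Cbr4, a carbonyl reductase, with 77.3% of 22 cells (9 Mus, 8 Cast, 5 both), and Tmed3, a cargo receptor of early secretion, with 76.5% of 17 cells (6 Mus, 7 Cast, 4 both).

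**Figure D2:**
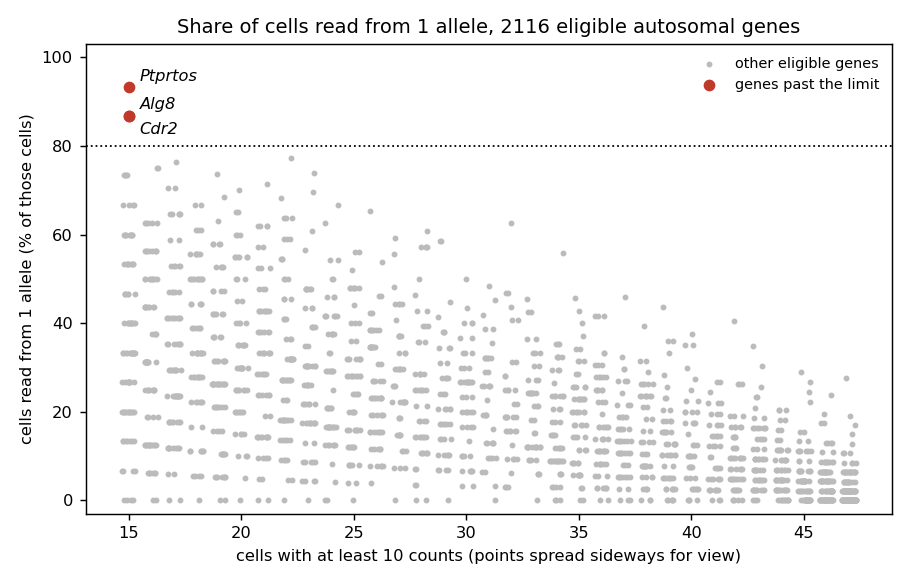
Share of cells read from 1 allele (y axis, percent of the cells with at least 10 counts) against the number of such cells (x axis) for 2116 eligible genes, 1 point per gene. The share falls as more cells reach 10 counts, and the 3 named genes (red) lie above the dotted 80% limit at the left edge, with 15 cells each.

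Cells with 2 to 9 counts of a gene were not used for the 80% limit and gave a second look at the same measure. There, 18 of 21 combinations of gene and cell were read from 1 allele (85.7%, 63.7% to 97.0%), namely 9 of 11 for Alg8, 7 of 8 for Cdr2 and 2 of 2 for Ptprtos. In the other eligible genes with 15 to 17 cells the share was 67.6%. Few counts favour 1 allele by themselves, so the shares are best read at equal counts. At 2 counts they were 6 of 7 against 92.3%, at 3 or 4 counts 6 of 6 against 77.3%, and at 5 to 9 counts 6 of 8 (75%, 34.9% to 96.8%) against 53.4%. At this depth the 3 genes cannot be set apart from the others below 10 counts, as each interval holds the other value. Among the cells used by the rule it was 11 of 12 at 10 to 14 counts, 11 of 11 at 15 to 19, 9 of 12 at 20 to 29 and 9 of 10 at 30 or more. In the other genes it was 38.05%, 32.4%, 36.3% and 25.5%. These same cells chose the 3 genes and left out the others, so this contrast follows from the rule and is no support.

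The level of the 3 genes was low. Over all 47 cells, the mean was 0.436 counts per 10000 for Alg8, 0.557 for Cdr2 and 0.485 for Ptprtos, at percentiles 1.65, 11.01 and 4.49 of the eligible genes, whose median was 1.15. The eligible genes with 15 to 17 cells other than these had a median of 0.511, close to that of the 3. Per kilobase of exon, the levels were 0.157, 0.0981 and 0.769 counts per 10000, and the short Ptprtos was the highest, at percentile 77.2 of the eligible genes. Cdr2 and Ptprtos were spread unevenly over the cells. The coefficient of variation of the level was 1.71 for Cdr2 and 1.60 for Ptprtos, at percentiles 96.7 and 91.8 of the others with 15 to 17 cells, whereas Alg8, at 1.22, was near their median of 1.18. The median count in a cell with any read was 11, 13 and 19, against 9. Cells without a read had about the same depth as cells with one, the medians being 177941 and 159760 total counts for Alg8, 163083.5 and 172736 for Cdr2, and 167135 and 164056 for Ptprtos.

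The 2 alleles of a gene met in few cells. Alg8 had a Mus read in 11 cells and a Cast read in 19, and a read of both in 4, where the product of the 2 shares gives 4.45 cells, a ratio of 0.90. For Cdr2, 16 cells had a Mus read, 11 a Cast read and 4 both, against a product of 3.74 (ratio 1.07). For Ptprtos, 11 had a Mus read, 7 a Cast read and 1 both, against 1.64 (ratio 0.610). The ratio had a median of 1.20 (quartiles 1.08 and 1.34) over the other eligible genes with 15 to 17 cells, in which 18 of 244 (7.38%) were below 1. Of the cells with a read, 15 of 26 for Alg8, 15 of 23 for Cdr2 and 15 of 17 for Ptprtos were used by the rule. The rule let few of those show both alleles, so it favours a low ratio and the contrast is no support. A single further cell with both alleles would put Alg8 or Ptprtos above 1 at the same product, and 1 fewer would put Cdr2 below it. The median ratio of the 3 genes, 0.90 over all cells, was 0.575 over the cells with both X chromosomes and 0.746 when a read meant at least 3 counts. At 10 counts it was 0, a value that the rule nearly fixes.

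**Figure D3:**
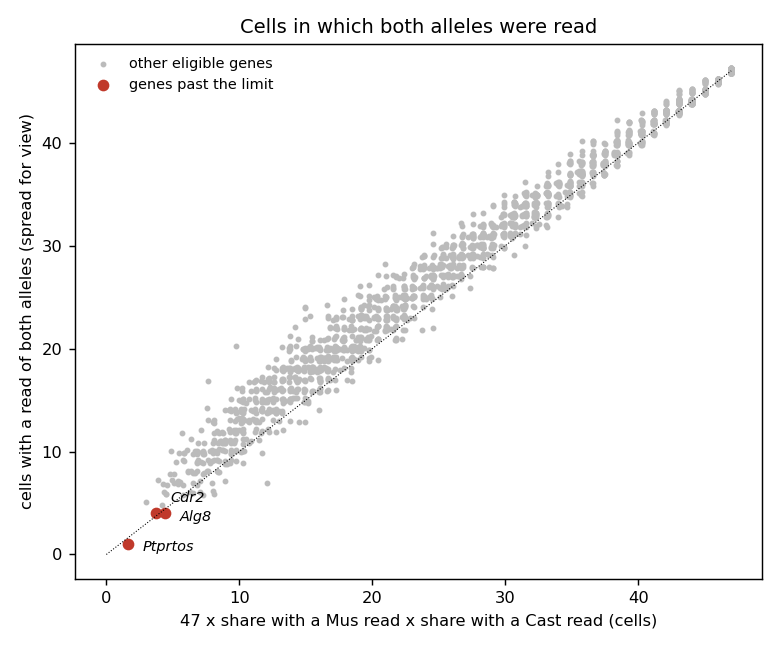
Number of cells with a read of both alleles (y axis) against the number given by the product of the shares of cells with a Mus and with a Cast read (x axis), 1 point per eligible gene, with equality as the dotted line. Most genes lie above the line, while Alg8, Cdr2 and Ptprtos (red) lie near it at 1 count or more, at 4, 4 and 1 cells.

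A 2-state model of transcription, in which an allele switches on and off and makes RNA while on, was fitted to each allele. Burst frequency is the switching-on rate and burst size the number of counts made per burst. Here a count is not a molecule, and a read over several SNPs may count more than once. Sizes may therefore also depend on the SNPs of a gene. Their percentiles compare genes only loosely, even within this plate. The frequencies of all 6 alleles were at or under percentile 2.00 of the eligible genes. On the log2 scale the frequency was -4.15 (Mus) and -3.74 (Cast) for Alg8, -3.53 and -4.36 for Cdr2, and -4.78 and -6.23 for Ptprtos, against medians of -1.04 and -0.83 over all eligible genes. The others with 15 to 17 cells had a median of -2.28 for either allele, so part of this difference was shared with them. No eligible gene had a lower Cast frequency than Ptprtos. When cells without a read of the allele were left out of the fit, the median log2 frequency over the 6 alleles moved from -4.26 to 0.21.

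Burst sizes of the 3 genes were at or above the upper quartile of the eligible genes. On the log2 scale they were 5.40 (Mus) and 6.44 (Cast) for Alg8, 6.23 for both alleles of Cdr2, and 7.27 and 7.89 for Ptprtos, against a median of 4.57 for either allele, over all eligible genes as over those with 15 to 17 cells. These are 42.2 and 86.6 counts per burst for Alg8, 75 for Cdr2, and 154 and 237 for Ptprtos, whose alleles were at percentiles 99.1 and 99.8. The Alg8 Mus allele was the lowest, at percentile 75.6, and the other 3 alleles lay between 93.5 and 96.4. The Ptprtos Cast fit rested on 7 cells with a read, and with counts as deposited in place of counts scaled to the median total its log2 size was 6.85 and its log2 frequency -5.40. Both fitted Ptprtos sizes exceed its highest count in any cell, 40. With X-Mus X-Cast cells only, the log2 sizes (Mus and Cast) were 4.78 and 7.27 for Alg8, 5.81 and 6.02 for Cdr2, and 7.68 and 8.72 for Ptprtos. A plainer measure, the mean count in cells with a read of the allele, placed the genes lower among all eligible genes. It was 9.09 and 11.5 for Alg8, 15.9 and 16.8 for Cdr2, and 20.6 and 20.1 for Ptprtos, at percentiles 23.8 to 74.95. Over the others with 15 to 17 cells its medians were 8.02 (Mus) and 8.04 (Cast) and its upper quartiles 10.02 and 10.3, above which lay every allele but the Mus allele of Alg8. In the fit that left out cells without a read of the allele, the median log2 size fell from 6.33 to 4.26, so the size depends on how cells at 0 are treated.

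**Figure D4:**
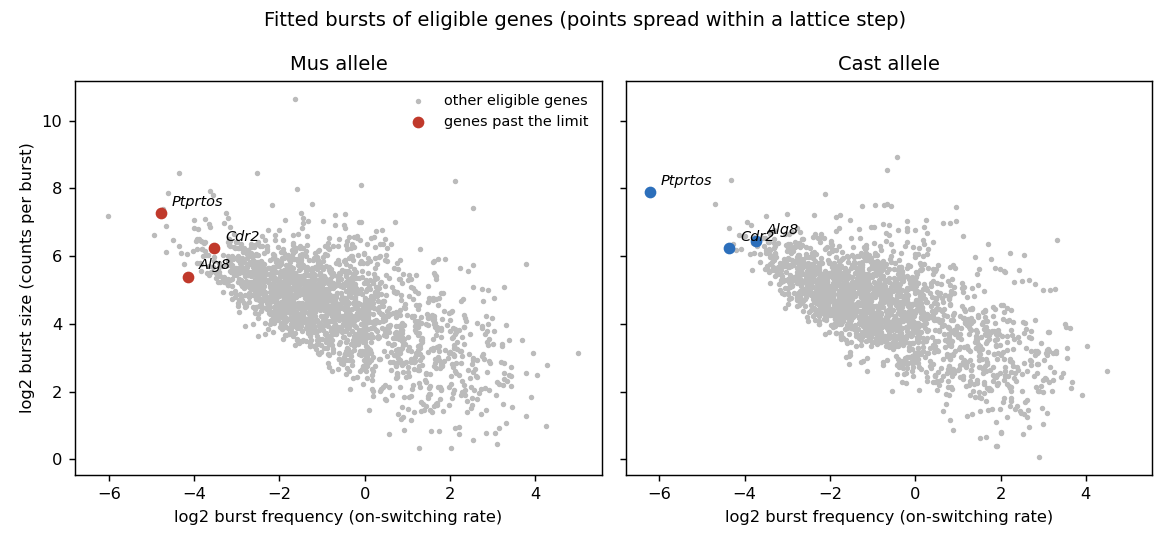
Fitted log2 burst size (y axis, counts per burst) against log2 burst frequency (x axis, switching-on rate) for the Mus allele (left) and the Cast allele (right), 1 point per eligible gene. The 3 named genes lie at the upper left of both clouds, with log2 frequencies from -6.23 to -3.53 and log2 sizes from 5.40 to 7.89.

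Genes next to the 3 were looked at in the same cells, which asks whether the choice of allele covers more than the gene. Most of these neighbours were read from both alleles in nearly all cells of the plate, so the shared cells largely repeat that. Over all cells with 10 counts, the share read from 1 allele was 0% for Ndufc2 (47 cells) and Pdzd9 (28), 2.17% for Clns1a (46), 4.44% for Uqcrc2 and Srsf6 (45 each) and 18.8% for Polr3e (16). Ndufc2, a subunit of respiratory complex I that starts 7.82 kb from the end of Alg8, was read from both alleles in each of the 13 cells that read Alg8 from 1 allele, with a Mus share of 36.8% to 63.8%. Polr3e, a subunit of RNA polymerase III 9.60 kb from Cdr2, was read from both alleles in all 6 such cells where it had 10 counts (18.2% to 90%). Uqcrc2, a core protein of respiratory complex III 298 kb from Cdr2, was read from both in 12 of 12 (29.7% to 86.7%), and Srsf6, a splicing factor 538 kb from Ptprtos, in 14 of 14 (13.9% to 77.8%). Pdzd9, whose end overlaps Uqcrc2, was read from both in 8 of 8, and Clns1a, 304 kb from Alg8, in 11 of 12. Ints4, an Integrator subunit 88.8 kb from Alg8, was itself read from 1 allele in 50% of its 30 cells and from both in 4 of the 11 shared with Alg8. Its Mus share had a median of 100% in the 3 of these that read Alg8 from Mus and of 54.3% in the 8 that read it from Cast, where it ranged from 0% to 100%.

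Neither chromosome as a whole was read from 1 allele in any cell. The Mus share of all other chromosome 7 counts lay between 41.6% and 49.3% in the 47 cells, and that of chromosome 2 between 40.2% and 49.6%, so every cell held somewhat more Cast than Mus counts of both. Its median was 48.1% in cells reading Alg8 from Mus and 44.3% in those reading it from Cast, 43.9% and 42.4% for Cdr2, and 44.98% and 45.6% for Ptprtos. In each of the 3 genes the ranges of Mus-reading and Cast-reading cells overlapped.

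**Figure D5:**
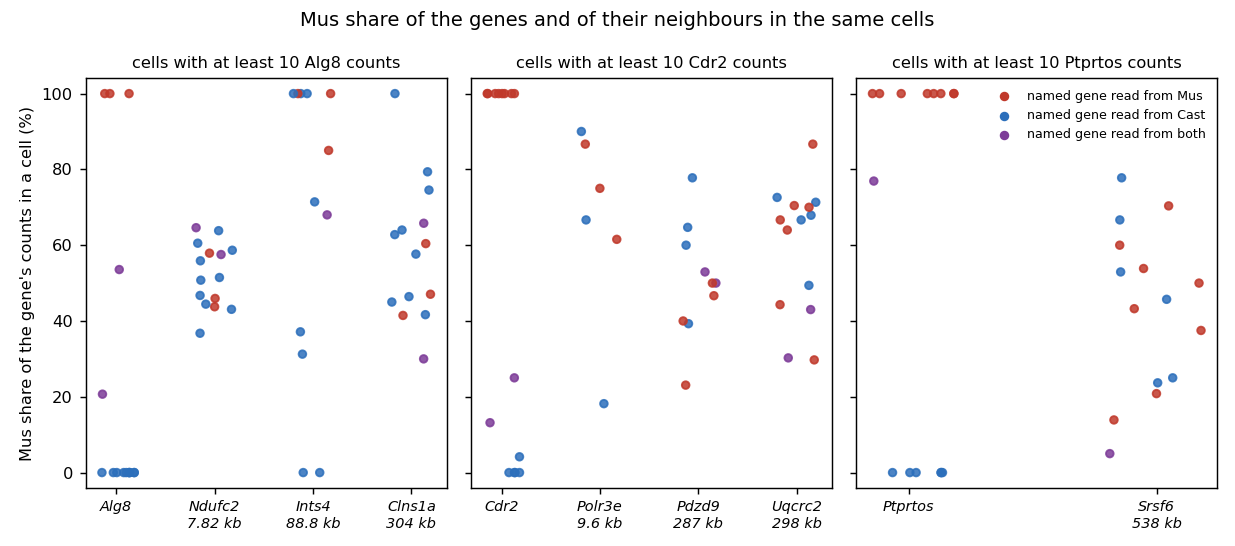
Mus share (y axis, percent) of each named gene and of eligible genes within 1 Mb, 1 point per cell with at least 10 counts of both genes, coloured by the allele from which the named gene was read. Alg8, Cdr2 and Ptprtos split to the top and bottom, whereas Ndufc2, 7.82 kb from Alg8, was read from both alleles in every one of these cells.

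Within a cell, the 3 genes were read from either parent. Of 14 combinations in which a cell read a pair of them from 1 allele each, 8 were on the same allele and 6 on opposite alleles. These came from 10 cells, as B02 and G03 gave 3 combinations each, and so are not independent. Alg8 and Cdr2, on the same chromosome, were on opposite alleles in 3 of 4 cells, with 11 Cast counts of Alg8 and 20 Mus counts of Cdr2 in well B02, 23 and 43 in D02, and 15 and 31 in H05. The cell in G03 read all 3 genes from Mus, with 12, 12 and 40 counts.

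The class of a cell by its X chromosomes was not part of the rule. Ptprtos was read in 13 of 23 X-Mus X-Cast cells, 1 of 15 X-Cast O-Mus cells and 3 of 9 X-Mus O-Cast cells. Its level ranged from 0 to 2.80 counts per 10000 (median 0.571) in the first class, and had a median of 0 in both others. The mean was 0.803, 0.136 and 0.253 counts per 10000, which is 5.90-fold lower in X-Cast O-Mus and 3.18-fold lower in X-Mus O-Cast than in X-Mus X-Cast cells. The exact Poisson intervals of the summed level were 0.705 to 0.888, 0.104 to 0.203 and 0.157 to 0.320. They treat counts as independent, although counts are amplified and a read may count more than once. The spread between cells is not covered. However, the X-Cast O-Mus value rested on the 37 counts of well E02 alone, with 0 counts in the other 14 cells, and without the cell in G02 the X-Mus O-Cast mean would be 6.02-fold lower. All 6 cells that read Ptprtos from Cast were X-Mus X-Cast cells, which also held 6 of the 8 that read it from Mus.

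Cdr2 ran the other way, with a mean of 0.328 counts per 10000 in X-Mus X-Cast, 0.573 in X-Cast O-Mus and 1.12 in X-Mus O-Cast. Reads were found in 12 of 23, 5 of 15 and 6 of 9 cells. The mean of X-Mus O-Cast was 3.41-fold that of X-Mus X-Cast cells, and 2.27-fold without the cell in C01. That of X-Cast O-Mus was 1.75-fold, and passed 2-fold once the X-Mus X-Cast cell in D04 (2.17-fold) or in B02 (2.01-fold) was left out, and was 1.28-fold without the X-Cast O-Mus cell in A03. Alg8 stayed within 2-fold, at 0.441, 0.344 and 0.578 counts per 10000. The pooled Mus share also differed by class, but rested on few cells. Of the 173 Cdr2 counts in X-Mus O-Cast cells, 79 were in C01 and 43 in D02, all Mus. How far the shares of other genes move between classes is not given here. The pooled Mus share of Alg8 was 28.5% in X-Mus X-Cast cells (1 Mus, 5 Cast and 2 both among those with 10 counts), 13.1% in X-Cast O-Mus (0 Mus and 4 Cast) and 60.9% in X-Mus O-Cast (2 Mus and 1 Cast). That of Cdr2 was 55.2% (4 Mus and 2 Cast), 31.2% (1 Mus, 2 Cast and 1 both) and 81.5% (3 Mus, 1 Cast and 1 both). The pooled shares over all 47 cells thus mix classes with different shares, in few cells each. Past 2-fold from X-Mus X-Cast cells, then, were 1 gene lower in X-Cast O-Mus and 1 lower and 1 higher in X-Mus O-Cast. Among 7750 autosomal genes with a mean of at least 1 count, 12.6% were lower and 14% higher past 2-fold in X-Cast O-Mus. In X-Mus O-Cast it was 18.2% and 16.1%. With 1 plate such differences have no test. The ranges of single cells overlapped between all classes for each gene, as all started at 0.

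In function the 3 genes had little in common. No list of genes by family held more than 1 of them, Cdr2 was in none, and Ptprtos was in that of protein phosphatases by the start of its symbol only. The lists of mitochondrial ribosomal proteins, mitogen-activated kinases, two-cell-like and primitive endoderm markers, clustered protocadherins and imprinted genes had no eligible gene, and so could hold none of the 3. Of 10 counted Alg genes, which together build the sugar chain for N-glycosylation, 4 were eligible. Beside Alg8, the share read from 1 allele was 50% for the mannosyltransferase Alg3 (18 cells, 6 Mus and 3 Cast), 50% for Alg14 (16 cells, 8 Cast and no Mus) and 31.8% for the mannosyltransferase Alg11 (22 cells, 7 Cast and no Mus). Ptprt itself had 23 counts (6 Mus and 17 Cast) in 3 cells, and in none of these was Ptprtos read. The library kit does not mark the strand, so reads of Ptprtos and of Ptprt in the same place cannot be told apart.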

How the data were processed

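Polyadenylated RNA of 47 single iPSCs of 1 plate was sequenced after amplification, without molecular identifiers. The authors deposited counts per gene, cell and allele. STAR 2.5.3a, SAMtools and build mm10 are named in the submitters' processing notes. The study's methods for allele resolution describe alignment with STAR to a genome masked at SNPs, splitting of reads by strain, and counts taken at SNP positions and summed per gene. They do not describe this plate apart, and by that scheme a read over several SNPs may count more than once. A column's cell was matched by plate position, and its X class was taken from the column name.

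Genes were placed with GENCODE M21, and promoters matched by symbol for 3 of 3 named and 1721 of 2116 eligible genes. Levels are both alleles per 10000 counts of the cell. Bursts were fitted by maximum likelihood to the Poisson-beta model (50 nodes, lattice of 16 steps per 10-fold from 0.001 to 1000) on counts scaled to the median total, with at least 3 cells read and fits at a bound left out, which kept 2054 Mus and 2035 Cast fits. Cells without an allelic read were kept at 0, whereas the study's methods treat some as missing. The fit was tested on simulated data only at higher burst frequencies and smaller burst sizes than those of all 6 alleles. That test therefore does not cover the fits of the 3 genes. Scripts ran under Python 3.11.15 with scipy 1.17.1 for intervals, numba 0.67.0 and numpy 2.4.6 for the fits, pandas 2.3.3 for tables and matplotlib 3.10.9 for plots.

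The genes and lists were chosen with earlier results of these data known. All genes that pass the rule are named, with the nearest outside the 80% limit, since there were under 30. Alternatives changed each limit of the rule, the scale, the fit and the cells used. Pairs at any distance, neighbours, the 8-letter motif and leaving out each cell were added after the data were seen. Intervals at 95% cover at most counting error, not the spread between cultures. No test between groups was made because the cells are 1 sample.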

Additional observations from a re-analysis of the deposited data

How the results depend on the processing

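The number of genes depended on nearly every limit. It was 46 with at least 5 counts per cell, 31 with 10 cells, 17 with 70% of cells, 12 with limits of 0.1 and 0.9, 5 with a pooled share of 0.2 to 0.8, and Alg8, Cdr2 and Ptprtos were in each of these sets. It was 1 (Ptprtos) with 90% of cells, 1 (Cdr2) with a pooled share of 0.4 to 0.6, and 0 with 20 counts, with 25 cells, with X-Mus X-Cast cells only and with counts thinned to the lowest total. In the settings that gave 0, each of the 3 genes fell short of the minimum of cells, whatever its share read from 1 allele. With the pooled share replaced by the mean share over cells the number of genes was 4, which kept Cdr2 and Ptprtos, lost Alg8 and added Aasdh and Exoc1. As each gene had exactly 15 cells, leaving out any of them dropped it, and removing single cells gave 0 to 5 genes. All 3 stayed in 15 of 47 such runs, and 7 other genes entered in some. The median level of 0.485 counts per 10000 was 0.157 per kilobase, and 0.840 over cells with a read. The median log2 burst size of 6.33 was 4.26 without the cells at 0 and 4.03 as the mean count per cell with a read, and the median log2 frequency of -4.26 rose to 0.21 without the cells at 0. The median ratio of cells with both alleles, 0.90, fell to 0.575 over the cells with both X chromosomes, to 0.746 when a read meant 3 counts and to 0 when it meant 10, the last being nearly fixed by the rule. At 1.5-fold, 2 genes differed in X-Cast O-Mus cells, and at 4-fold 0 in X-Mus O-Cast cells. The number of gene lists holding one of the genes was 1 in place of 2 with 90% of cells. The share read from 1 allele of Cdr2 was 100% when limited to cells with both X chromosomes, and that of Ptprtos 100% under 3 settings, while in the others it ranged from 60% to 88.2% for Alg8 and Cdr2. The causes were not tested. Pairs of the genes within 1 Mb did not exist, and medians over cells at 0 gave no fold. Depth limits all of this, since a gene had 318 to 439 counts in all and a count is not a molecule.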

Other observations

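Beside Alg8, Cdr2 and Ptprtos, 12 genes met the rule both when at least 10 counts were asked in 10 cells and when at least 5 counts were asked in 15 cells. The settings gave 31 of 2683 (1.16%) and 46 of 2965 eligible genes (1.55%). The 12 were picked after these values were seen and carry no test. They lay on 9 chromosomes, had 10 to 12 cells with at least 10 counts and were at 0 in 17 to 30 cells. Tsc1, which holds back growth signalling through mTORC1, was read from Mus in 6 of its 12 cells with 10 counts, from Cast in 5 and from both in 1. Cldn6, a tight-junction claudin of embryonic epithelia, had 6 Mus, 4 Cast and 2 both. Hps5, a subunit of the BLOC-2 complex of lysosome-related organelles, had 8 Mus, 3 Cast and 1 both. Rcan1, an inhibitor of calcineurin, had 6 Mus, 4 Cast and 1 both in 11 cells. The deubiquitinase gene Usp45 leaned to Cast, with 1 Mus, 7 Cast and 2 both in 10 cells, and the ion channel gene Tmem38b to Mus, with 7 Mus, 2 Cast and 2 both in 11. The others were Fbxl17, Plekha8, Pnma2, Pus7l, Rufy2 and Zyg11b, read from 1 allele in 81.8% to 90% of 10 to 12 cells.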
